A study of Mus musculus with 8 samples.

Results

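The metalloproteinase genes of retinal astrocytes (AC), together with the genes of their tissue inhibitors, were compared between 4 Cyp1b1+/+ and 4 Cyp1b1-/- RNAseq libraries. They were taken by symbol, as every gene of the Mmp, Adam, Adamts, Adamtsl and Timp families followed by a number, with Reck, Bmp1, Tll1 and Tll2 added. This gave 41 of the 13575 genes analysed: 11 matrix metalloproteinases, 10 ADAMs, 10 ADAMTS proteases, 4 ADAMTS-like proteins, 2 tolloid proteinases and 4 inhibitors. Other genes of these families, such as Mmp9 and Timp4, were not analysed here. Per the methods, AC were cultured from the pooled retinas of a litter of 4-week-old mice of mixed gender for each genotype, depleted of CD31-positive cells, and grown with interferon-γ in both groups. The labels name the strain C57BL/6 for the Cyp1b1+/+ libraries and other entries of that style for the Cyp1b1-/- libraries, and these entries were not used. Nothing says that the 4 replicates of a genotype came from separate cultures or animals, so the p-values measure the spread between these libraries, which may be technical.

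Matrix metalloproteinases are secreted or membrane-anchored enzymes that need zinc at their active site and cut collagens and other matrix proteins. They are made as inactive precursors and are held in check by the tissue inhibitors of metalloproteinases (TIMPs). ADAMs are membrane proteins that release the outer part of growth factors, cytokine receptors and adhesion molecules from the cell surface. ADAMTS proteases are secreted and cut proteoglycans and procollagens, and ADAMTS-like proteins resemble them but lack the protease part. In the retina, astrocytes spread over the inner surface ahead of the growing vessels, and matrix turnover accompanies both migrations.

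Some facts of the whole series bear on every value given here. Values are the counts per gene that the authors scaled by TMM and rounded, called normalized values, and their total per library was 19261729 to 20134745. Cyp1b1 itself was higher in the libraries labelled Cyp1b1-/- (1276 to 1368) than in Cyp1b1+/+ (749 to 882), so the level of the targeted gene runs against the label. The groups are therefore named by their labels. The sex-linked genes also separate them. Xist, which is made from the inactive X chromosome, had 21084 to 26863 in Cyp1b1+/+ and 34 to 46 in the libraries labelled Cyp1b1-/-, whereas the Y-linked Ddx3y had 0 to 1 and 1230 to 1324. These levels do not match a pool of mixed gender in either group, and genotype and sex cannot be told apart in any comparison. Of 12 astrocyte markers, 7 had values. Vim (74812 to 81133 in Cyp1b1+/+ and 99216 to 128380 in the other group) and Gja1 (736 to 851 and 1180 to 3124) were higher in the libraries labelled Cyp1b1-/-, and Pax2 (28 to 39 and 0 to 1) was lower. Glul (1591 to 1769 over the 8 libraries), Sox9 (86 to 119), Slc1a3 (16 to 32) and Slc1a2 (11 to 20) did not pass the test. Gfap, S100b, Aqp4 and Aldh1l1 were not analysed here. Some markers of other cell types also moved with the label, where 26.8% of all genes were higher and 26.9% lower in the same test. Of 3 measured photoreceptor and neuron markers 1 was lower (Rbpms), and of 2 pigment epithelium and melanocyte markers 1 was lower (Mitf). Of 4 measured Müller glia markers 3 were lower (Dkk3 at 4330 to 4965 and 1656 to 2001, Apoe at 246 to 337 and 81 to 97, and Kdr, which is also the endothelial marker measured, at 191 to 228 and 156 to 175). Both measured microglia markers were lower, and both were low throughout. Csf1r had 32 to 37 and 7 to 15, and Cd68 had 42 to 64 and 32 to 42. The pericyte marker Pdgfrb was also lower (725 to 883 and 301 to 738), and its groups overlap through replicate 2 labelled Cyp1b1-/-. The smooth muscle markers Acta2 (21320 to 34943 over the 8 libraries) and Tagln (17341 to 32704) did not pass. The part of these cell types in the results was not tested.

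Among the 41 genes and the listed markers, replicate 2 labelled Cyp1b1-/- stands apart from the other libraries of its label most in fibrillar collagen genes. Col1a1 had 122121 in it and 1643, 1843 and 1802 in replicates 1, 3 and 4. The 4 measured fibroblast markers of the 9 listed (Col1a1, Col1a2, Col3a1 and Fbln1) summed to 174580 in this library, to 3094 to 3516 in the other 3 of its label and to 3851 to 4990 in Cyp1b1+/+. Nearly all of that sum came from the collagens, since Fbln1 was at 1608 against 1188 to 1370. Outside replicate 2 the collagens did not move alike, which the sum hides. Col3a1 had 46 to 73 in that label and 770 to 946 in Cyp1b1+/+. Col1a1 had 1643 to 1843 and 1697 to 2381, and Col1a2 had 210 to 230 and 185 to 225. Some markers of other cell types were higher in replicate 2 too. Gja1 was at 3124 against 1180 to 1232, Pdgfrb at 738 against 301 to 361 and the neuronal Tubb3 at 2198 against 1084 to 1104. Other listed markers were not, such as Glul at 1591 against 1607 to 1725 and the neuronal Syt1 at 15 against 10 to 20. In bulk RNA more cells of a type and more RNA per cell cannot be told apart. Among the 41 genes, 3 exceeded 2 times the average of replicates 1, 3 and 4 in this replicate, 7.32% of them, against 3.81% of all 13575 genes. These were Mmp2, Mmp14 and Reck. The excess of Mmp2 in this library was known when the genes were chosen, so nothing is read from that share.

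The Timp genes and a few surface enzymes were the most abundant members per length of exons. In Cyp1b1+/+ the highest level was that of Timp2, at 3109 ± 113 normalized value per kb (SD, n = 4), followed by Timp1 at 2928 ± 105, Adam9 at 1736 ± 56.2, Timp3 at 955 ± 60.1 and Mmp14 at 895 ± 79.0. The ranges of Timp2 and Timp1 overlap on this scale, but Timp2 was above Timp1 in each of the 4 libraries. Timp3 was above Mmp14 in replicates 1 and 2 and slightly below it in replicates 3 and 4, so their order is not resolved. In the libraries labelled Cyp1b1-/- Timp2 stood at 4425 ± 52.0 per kb, Timp1 at 2658 ± 84.1, Adam9 at 1925 ± 98.7 and Timp3 at 1503 ± 58.5, and the libraries of these 4 genes do not overlap each other there. At the low end, Mmp15 had 5.98 per kb in Cyp1b1+/+, and only Adam23 was lower. Exon lengths join the exons of all annotated transcripts, so a long exon that is rarely used lowers a level.

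**Figure D1:**
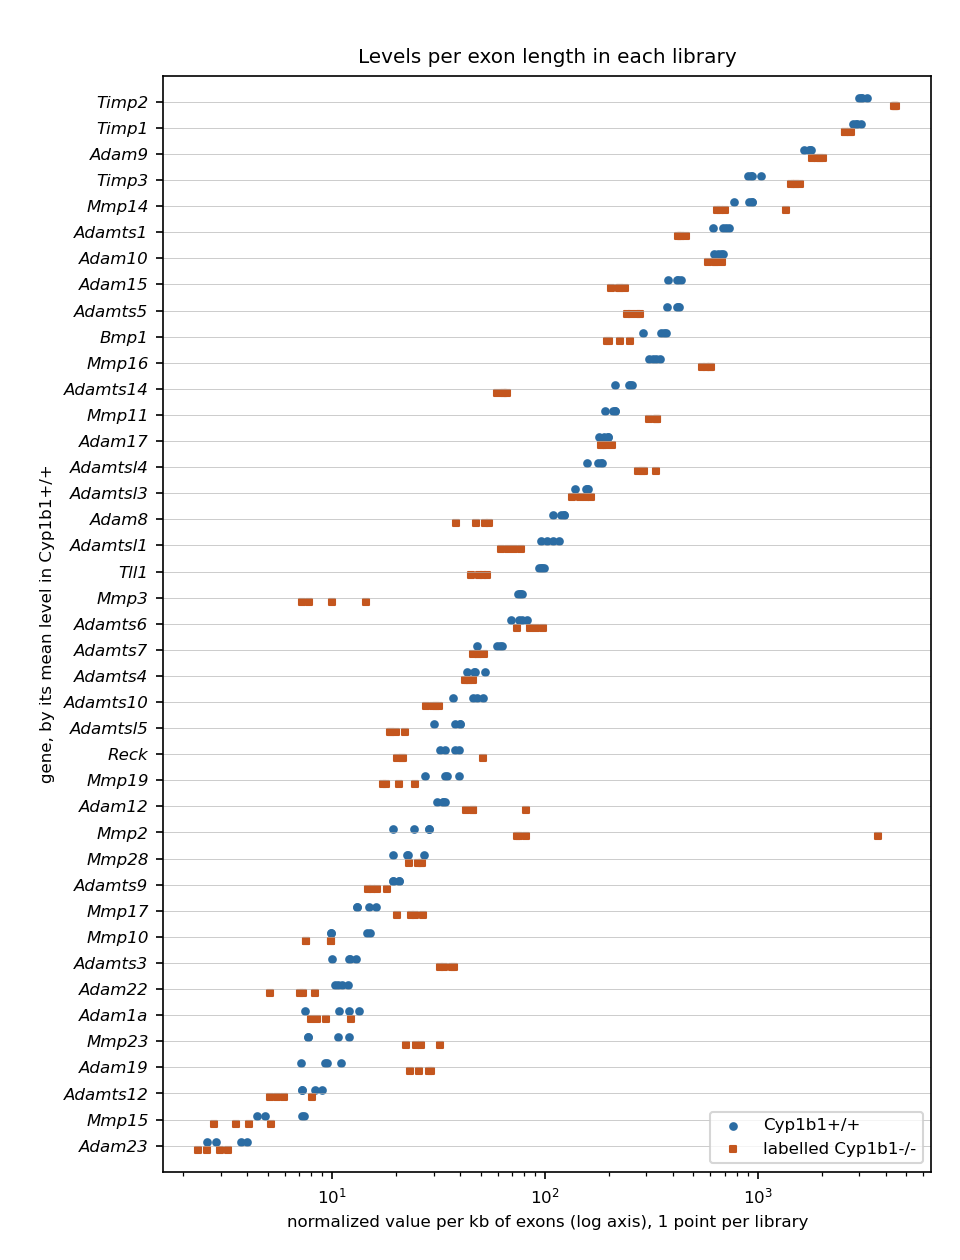
Level of each of the 41 genes per kb of exons on a log axis, with 1 point per library (circles Cyp1b1+/+, squares labelled Cyp1b1-/-) and genes ordered by their mean in Cyp1b1+/+. Timp2 and Timp1 have the highest group means in both groups, and Mmp2 has 1 square far to the right of all its other points, above Timp1 in that library.

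The regions just upstream of the stromelysin genes Mmp3 and Mmp10 are shown because they hold the same pair of motifs. These genes also lie 46.4 kb apart on chromosome 9, although of them only Mmp3 was called lower. The region of Adam19 is shown because it holds a motif of that pair and the gene rose. The sequences are those of RefSeq on GRCm38.p6, from 250 bases before to 50 bases after an annotated start, 5′ to 3′ on the strand of the gene. Capitals mark TGANTCA, the AP-1 motif, and TATAAA, searched on both strands, with no overlap between them here. The windows are chr9:7445572-7445871 for Mmp3, chr9:7502092-7502391 for Mmp10 and chr11:46055734-46056033 for Adam19, all on the plus strand.
Mmp3: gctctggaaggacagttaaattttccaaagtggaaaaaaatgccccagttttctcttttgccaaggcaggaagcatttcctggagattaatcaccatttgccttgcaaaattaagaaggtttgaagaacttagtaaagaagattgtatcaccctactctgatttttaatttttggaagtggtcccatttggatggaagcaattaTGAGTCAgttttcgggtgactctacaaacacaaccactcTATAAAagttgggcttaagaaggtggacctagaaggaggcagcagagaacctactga
Mmp10: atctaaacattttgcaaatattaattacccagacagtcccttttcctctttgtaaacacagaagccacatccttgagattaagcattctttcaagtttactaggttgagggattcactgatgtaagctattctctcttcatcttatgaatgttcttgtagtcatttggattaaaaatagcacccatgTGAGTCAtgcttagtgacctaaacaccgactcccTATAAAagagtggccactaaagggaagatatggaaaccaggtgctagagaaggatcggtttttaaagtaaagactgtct
Adam19: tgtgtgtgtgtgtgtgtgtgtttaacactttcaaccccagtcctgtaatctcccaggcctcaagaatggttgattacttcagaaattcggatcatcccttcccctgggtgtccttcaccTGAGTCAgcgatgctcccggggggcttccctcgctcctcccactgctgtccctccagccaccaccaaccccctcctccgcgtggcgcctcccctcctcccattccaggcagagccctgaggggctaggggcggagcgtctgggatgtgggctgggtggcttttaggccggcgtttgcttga

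The AP-1 motif begins 46 bases before the annotated start of Mmp3, 63 bases before that of Mmp10 and 131 bases before this start of Adam19, which has others without it. Promoters were given for 28 of the 41 genes. The AP-1 motif was found in 3 of these (Mmp3, Mmp10 and Adam19), 10.7% of genes, and in at least 1 window of 8.97% of all 27025 genes in the table (7.81% of its 32851 windows). TATAAA was likewise found in 3 (Mmp3, Mmp10 and Adamts1), against 15.7% of all genes and 13.6% of all windows. A match describes the letters of the window and not a bound site.

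Of the 41 genes, 12 rose and 16 fell in those labelled Cyp1b1-/- and 13 did not pass. The test was that of limma on log2(value + 1), with p adjusted over all 13575 genes and a threshold of 0.05, and a log2 change is the value labelled Cyp1b1-/- minus that of Cyp1b1+/+ on this scale. The higher and lower genes are 29.3% and 39.0% of the members, against 26.8% and 26.9% of all genes, or 68.3% against 53.7% in either direction. A change of more than 2-fold past the test was found in 7 of the 41 (17.1%), against 7.12% of all genes. The median log2 fold change was -0.18 for the members and 0.00 for all genes, and the median size of a change was 0.65 against 0.22. In 27 of the 41 the libraries of the groups did not overlap (65.9%, against 49.3% of all genes). An exact permutation test of such a gene gives a two-sided p = 0.029, the smallest that 4 libraries against 4 allow. Without replicate 2 labelled Cyp1b1-/- the counts were 12 higher and 19 lower (75.6%, against 56.2% of all genes), all 28 calls were kept in the same direction, and Mmp14, Reck and Adamts12 were added among the lower genes.

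**Figure D2:**
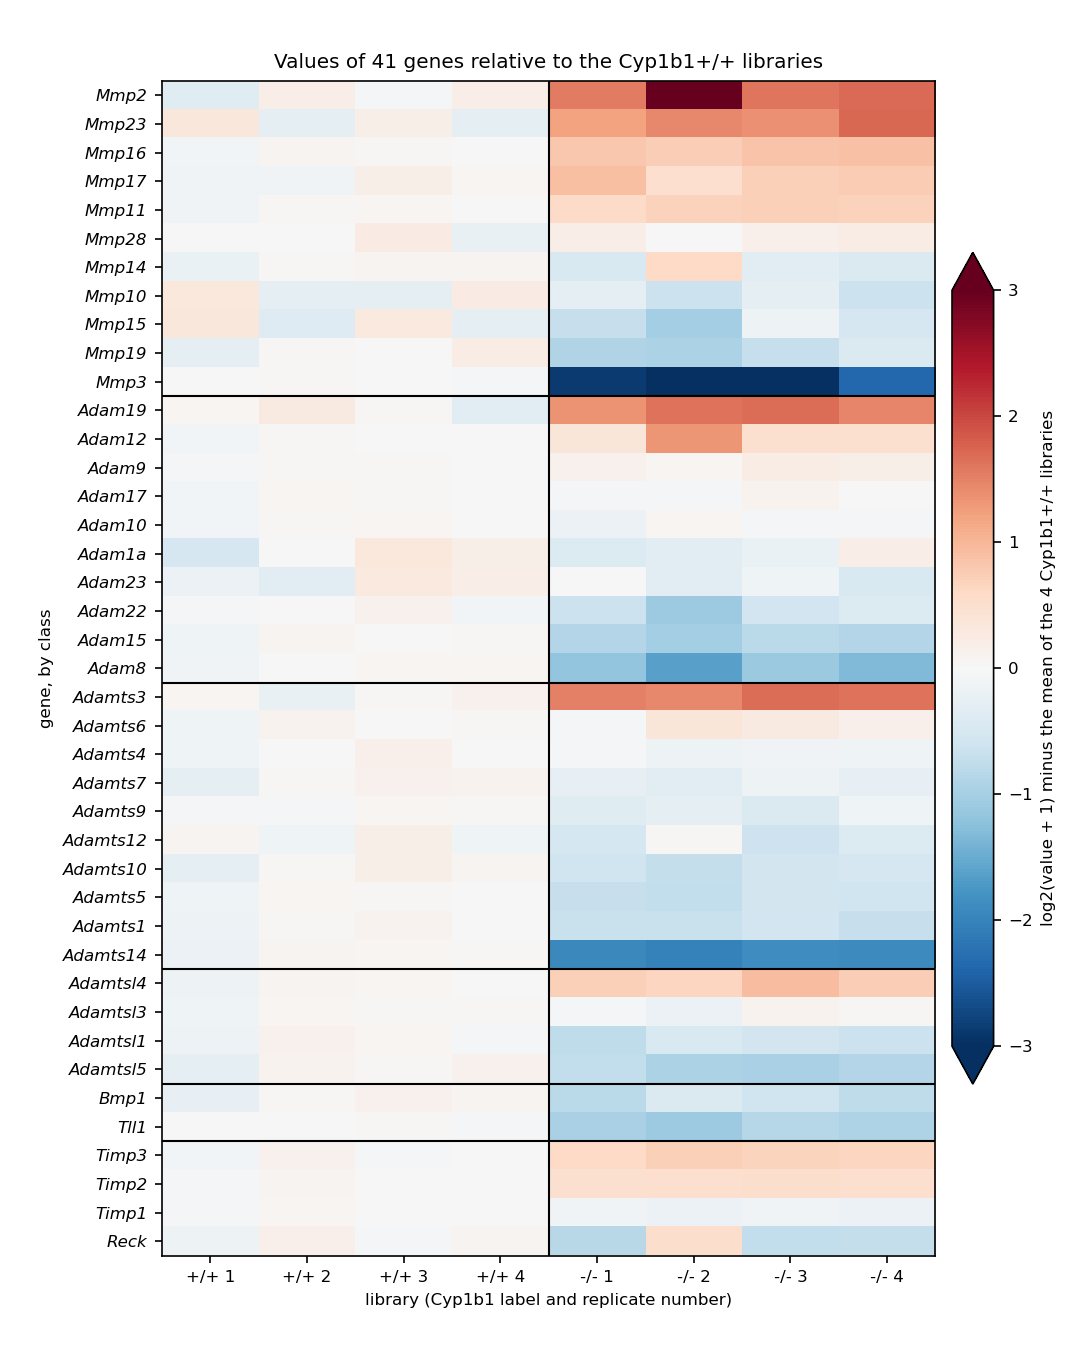
Value of each gene (rows, grouped by class) in each of the 8 libraries (columns), as log2(value + 1) minus the mean of the 4 Cyp1b1+/+ libraries, with red above and blue below it and colors saturating at 3 in either direction. Rows such as Adamts3 and Adamts14 keep a similar shade over the 4 right-hand columns. In Mmp2, Mmp14, Adam12 and Reck the second of these columns departs from the rest. It is of the other color in Mmp14 and Reck, and a stronger red in Mmp2 and Adam12.

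**Figure D3:**
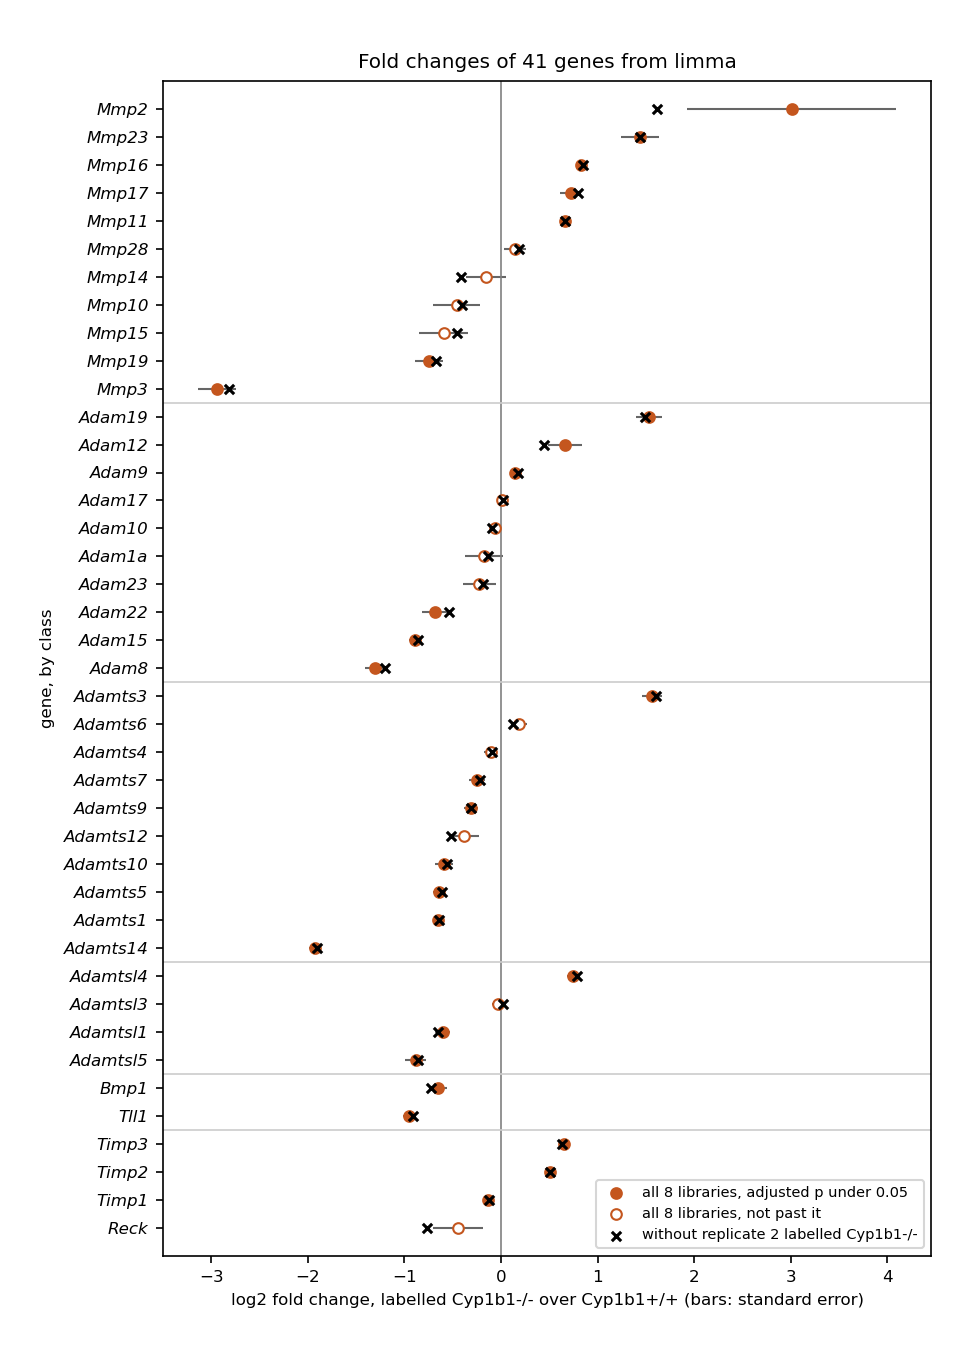
Log2 fold change of each of the 41 genes with its standard error from limma (filled circles pass an adjusted p of 0.05, open circles do not) and the value without replicate 2 labelled Cyp1b1-/- (crosses). The crosses lie near the circles for most genes, and away from them for Mmp2 (1.62 against 3.01), Mmp14, Reck and Adam12.

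Among the matrix metalloproteinases 5 of 11 were higher, 2 lower and 4 did not pass, where 26.8% of all genes were higher and 26.9% lower. Without replicate 2 labelled Cyp1b1-/- there were 5 higher and 3 lower. Mmp2 encodes gelatinase A, which cuts denatured collagen and collagen IV and is activated at the cell surface by the Mmp14 enzyme. Its normalized value was 65, 96, 82 and 96 in replicates 1 to 4 of Cyp1b1+/+, whereas those labelled Cyp1b1-/- had 249, 12371, 255 and 275. The groups did not overlap, but a single library set the size of the difference. The log2 change was 3.01 (SE 1.08, limma adjusted p = 0.0377) with all 8 libraries. Without replicate 2 it was 1.62 (limma adjusted p = 1.96e-07), a mean of 260 ± 13.6 (SD, n = 3) against 84.8 ± 14.7 (SD, n = 4), or 3.06-fold. With all libraries the call was lost when any single Cyp1b1+/+ library was left out (limma adjusted p = 0.0689 to 0.0805) and under robust variance moderation (limma adjusted p = 0.115). The fibroblast markers that were high in the same library are given above, and their part in the value of 12371 was not tested. In that library Mmp2 made up 61.1% of the summed level per kb of the 11 Mmp genes, against 4.13% to 4.48% in the other 3 of its label and 1.31% to 1.70% in Cyp1b1+/+.

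Of 4 membrane-type enzymes, Mmp16 and Mmp17 rose and Mmp14 and Mmp15 did not pass, where 26.8% of all genes were higher. Mmp16, which encodes MT3-MMP, had 2663, 3013, 2889 and 2793 in Cyp1b1+/+ and 4964, 4732, 5163 and 5241 in those labelled Cyp1b1-/-. It rose 1.77-fold with no overlap (log2 change 0.82 with an SE of 0.05, limma adjusted p = 2.97e-07). Mmp17, the gene of the lipid-anchored MT4-MMP, rose from 87, 87, 106 and 99 to 178, 134, 155 and 162 (log2 change 0.72, limma adjusted p = 0.000299). Mmp14, the gene of MT1-MMP and the most abundant Mmp per kb in Cyp1b1+/+, had 4641, 5429, 5640 and 5622 there and 3857, 8078, 4191 and 3964 in the other group. Replicate 2 was thus the highest of all 8 libraries while the other 3 lay below every Cyp1b1+/+ library. Mmp14 did not pass with all libraries (log2 change -0.16, limma adjusted p = 0.545) and was lower without replicate 2 (log2 change -0.41, limma adjusted p = 6.68e-05). Mmp15, the MT2-MMP gene, was low, at 24 to 40 and 15 to 28, and did not pass (limma adjusted p = 0.0713), although it did without replicate 3 labelled Cyp1b1-/- (limma adjusted p = 0.0405).

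**Figure D4:**
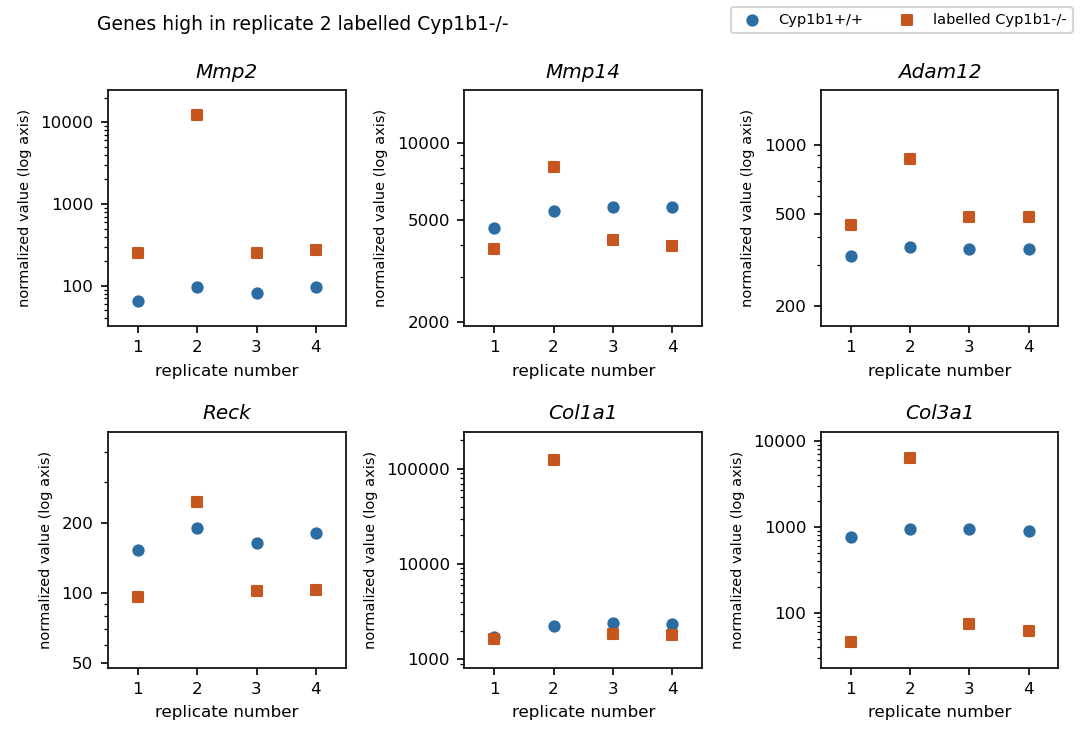
Normalized value on a log axis by replicate number for Mmp2, Mmp14, Adam12 and Reck and for the collagen genes Col1a1 and Col3a1 (circles Cyp1b1+/+, squares labelled Cyp1b1-/-). Equal numbers are not taken to pair the libraries. The square of replicate 2 lies above all other points in each panel, at 12371 for Mmp2 and 122121 for Col1a1.

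The largest fall among the 41 genes was that of Mmp3. It encodes stromelysin-1, which cuts a broad range of matrix proteins and activates other Mmp precursors. Its values were 138, 141, 138 and 135 in Cyp1b1+/+ and 18, 13, 14 and 26 in those labelled Cyp1b1-/-. The lowest Cyp1b1+/+ library was therefore far above the highest of the others, and the means differed 7.77-fold (138 ± 2.45 and 17.8 ± 5.91, SD, n = 4; log2 change -2.94 with an SE of 0.20, limma adjusted p = 1.06e-06). Mmp10, which encodes stromelysin-2 and starts 46.4 kb downstream of the end of Mmp3, had 26, 17, 17 and 25 and then 17, 13, 17 and 13. It did not pass (log2 change -0.46, limma adjusted p = 0.132), and its groups share values. Mmp11, the gene of stromelysin-3, moved the other way, from 534, 591, 595 and 580 to 860, 923, 939 and 932 (log2 change 0.67 with an SE of 0.05, limma adjusted p = 1.62e-06).

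Mmp23, the gene of a metalloproteinase without the usual hemopexin domain, had 28, 18, 25 and 18 in Cyp1b1+/+ and 52, 61, 58 and 75 in those labelled Cyp1b1-/- (log2 change 1.44 with an SE of 0.19, limma adjusted p = 0.000139). Mmp19 fell from 97, 122, 120 and 139 to 63, 61, 73 and 87 (log2 change -0.75, limma adjusted p = 0.00153). Exons of other genes cover 28.3% of its exon bases, and the sources used here do not state that strand was used in counting. Over 5% of exon bases were shared in 8 of the 41 genes, among them Mmp28 (12%), Adam19 (10.1%) and Mmp11 (5.58%). Mmp28, the epilysin gene, had 75 to 105 and 89 to 103 and did not pass (limma adjusted p = 0.309).

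Of the 10 ADAM genes 3 rose, 3 fell and 4 did not pass, both with all libraries and without replicate 2, a share close to the 53.7% called among all genes. The main shedding enzymes were among the last. Adam10, the principal shedding enzyme of Notch receptors and N-cadherin, had 3064 to 3392 in Cyp1b1+/+ and 2870 to 3358 in those labelled Cyp1b1-/- (log2 change -0.06 with an SE of 0.05, limma adjusted p = 0.343). Adam17, which releases TNF and several EGF receptor ligands, had 1286 to 1421 and 1315 to 1484 (log2 change 0.01 with an SE of 0.05, limma adjusted p = 0.877). In both genes the groups overlap over most of their range. Adam9, the most abundant ADAM per kb, had 6803, 7307, 7267 and 7195 and then 7806, 7413, 8354 and 8110, a rise of 1.11-fold (log2 change 0.15 with an SE of 0.04, limma adjusted p = 0.0132). It did not pass when the columns were scaled to equal totals (limma adjusted p = 0.0529).

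The called ADAM genes with larger changes were of lower abundance, apart from Adam15. Adam19, whose product processes neuregulin, rose from 67, 78, 66 and 51 to 166, 204, 208 and 182 (log2 change 1.53 with an SE of 0.13, limma adjusted p = 6.38e-06). Adam8, known from leukocytes and reactive glia, fell from 507, 553, 568 and 572 to 243, 177, 253 and 220 (log2 change -1.31 with an SE of 0.10, limma adjusted p = 3.07e-06). In both genes the groups are far apart, and replicate 2 was the lowest of its label in Adam8, which without it fell by 1.20 on the log2 scale. Adam15, which binds integrins through its disintegrin domain, fell from 2321, 2686, 2566 and 2607 to 1381, 1259, 1459 and 1374 (log2 change -0.89 with an SE of 0.06, limma adjusted p = 6.13e-07). Exons of a gene on the opposite strand cover 20.6% of its exon bases.

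Adam12, a protease of muscle, bone and stromal cells, had 328, 359, 352 and 352 in Cyp1b1+/+ and 450, 865, 485 and 484 in those labelled Cyp1b1-/-. All 4 of the latter lay above all of the former, with replicate 2 above the rest (log2 change 0.66 with an SE of 0.17, limma adjusted p = 0.00919). Without replicate 2 the rise was 0.44 on the log2 scale (limma adjusted p = 1.97e-05). Adam22 and Adam23 encode neuronal surface proteins without protease activity that bind Lgi ligands. Adam22 fell from 153, 159, 171 and 148 to 101, 73, 105 and 119 (log2 change -0.68, limma adjusted p = 0.00199), whereas Adam23, at 46 to 71 and 42 to 58, did not pass (limma adjusted p = 0.303). Adam1a, at 56 to 100 and 60 to 92, did not pass either (limma adjusted p = 0.462). Its value is uncertain, since 63.7% of its exon bases lie in exons of other genes and it has a close copy, Adam1b.

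The ADAMTS proteases were mostly lower, with 1 of 10 higher, 6 lower and 3 not past the test, where 26.8% of all genes were higher and 26.9% lower. Without replicate 2 there were 1 higher and 7 lower. Their summed normalized value was 10268 to 11912 in Cyp1b1+/+ and 7174 to 7811 in those labelled Cyp1b1-/-. The procollagen N-propeptidases, which trim the amino end of fibrillar procollagens, gave the largest changes of the class, in opposite directions. Adamts14 fell 3.83-fold, from 1115, 1340, 1312 and 1286 to 331, 310, 345 and 334 (log2 change -1.93 with an SE of 0.06, limma adjusted p = 6.34e-09). Adamts3, which also activates the lymphangiogenic factor Vegfc, rose 2.98-fold, from 66, 54, 65 and 70 to 183, 174, 204 and 199 (log2 change 1.56 with an SE of 0.10, limma adjusted p = 9.55e-07). Neither pair of groups overlaps. Per kb of exons Adamts14 went from 243 to 63.5 and Adamts3 from 11.7 to 35.0, so Adamts14 was the higher of the pair in both groups.

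The proteoglycanases cut aggrecan, versican and brevican, and 3 of the 4 measured were lower, where 26.9% of all genes were lower. Adamts1 and Adamts5 lie 53.1 kb apart on chromosome 16 and fell by nearly the same amount. Adamts1 had 3286, 3756, 3900 and 3648 in Cyp1b1+/+ and 2281, 2305, 2447 and 2250 in those labelled Cyp1b1-/- (log2 change -0.65 with an SE of 0.05, limma adjusted p = 3.42e-06). Adamts5 had 4063, 4621, 4570 and 4504, then 2738, 2637, 3033 and 2941 (log2 change -0.65 with an SE of 0.05, limma adjusted p = 4.94e-06). Adamts9, at 290 to 311 and 222 to 274, fell as well (log2 change -0.31, limma adjusted p = 0.00463). Exons of genes on the opposite strand cover 12% of the exon bases of Adamts9. Adamts4, at 207 to 251 and 202 to 220, did not pass (log2 change -0.11, limma adjusted p = 0.227).

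Of the remaining ADAMTS genes, Adamts10, which acts on fibrillin microfibrils, fell from 306, 381, 421 and 397 to 246, 229, 254 and 262 (log2 change -0.59, limma adjusted p = 0.000437). Adamts7, which cuts the cartilage protein COMP, was lower at 303 to 397 against 290 to 327 (log2 change -0.25, limma adjusted p = 0.0329). Its groups overlap, and it is the only called gene of the 41 for which they do. The call was lost without Cyp1b1+/+ replicate 2, 3 or 4 or without replicate 1 or 4 labelled Cyp1b1-/- (limma adjusted p = 0.0664 to 0.0949). Adamts12 had 91, 79, 98 and 79 and then 60, 88, 56 and 65, with replicate 2 the highest of its label. It did not pass with all libraries (limma adjusted p = 0.0581) but did without replicate 2 (limma adjusted p = 0.00349), under scaling to equal totals (limma adjusted p = 0.0392) and under robust moderation (limma adjusted p = 0.0445). Adamts6, at 541 to 644 and 578 to 766, did not pass (log2 change 0.19, limma adjusted p = 0.0873), though it did without replicate 1 labelled Cyp1b1-/- (limma adjusted p = 0.0134) and when replicate number was a block (limma adjusted p = 0.0155).

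Of the 4 ADAMTS-like genes 1 was higher, 2 lower and 1 did not pass, with or without replicate 2, against 26.8% and 26.9% of all genes. Adamtsl4, a microfibril-associated protein known from lens position in the eye, rose from 660, 778, 770 and 749 to 1203, 1148, 1397 and 1227 (log2 change 0.75 with an SE of 0.07, limma adjusted p = 9.79e-06). Adamtsl1 fell from 1225, 1488, 1396 and 1309 to 795, 989, 918 and 861 (log2 change -0.60 with an SE of 0.08, limma adjusted p = 7.66e-05). Adamtsl5 fell from 143, 188, 178 and 189 to 104, 89, 88 and 94 (log2 change -0.88 with an SE of 0.11, limma adjusted p = 6.7e-05). Adamtsl3, at 1079 to 1240 and 1045 to 1277, did not pass (log2 change -0.03, limma adjusted p = 0.734), and the groups cover almost the same range.

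Both tolloid proteinases were lower, with or without replicate 2, as were 26.9% of all genes. Bmp1 encodes the enzyme that removes the carboxyl end of fibrillar procollagens and, with Tll1, cuts the BMP antagonist chordin. It had 2557, 3109, 3305 and 3206 in Cyp1b1+/+ and 1743, 2238, 1995 and 1779 in those labelled Cyp1b1-/-, without overlap (log2 change -0.65 with an SE of 0.09, limma adjusted p = 0.000223). Tll1 had 749, 748, 771 and 729 and then 382, 349, 416 and 397, also without overlap (log2 change -0.96 with an SE of 0.06, limma adjusted p = 4.23e-07). Tll2 was not analysed here. In replicate 2, which held the most Col1a1, Bmp1 was the highest of its label and Tll1 the lowest.

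Of the 4 inhibitor genes 2 were higher, 1 lower and 1 did not pass, and without replicate 2 the counts were 2 higher and 2 lower, against 26.8% and 26.9% of all genes with all libraries. Timp3, whose product binds to the matrix and inhibits ADAM17 and ADAMTS proteases as well as Mmps, had 7371, 8490, 7597 and 7659 in Cyp1b1+/+ and 11704, 12834, 12358 and 12074 in those labelled Cyp1b1-/-. It rose 1.57-fold with no overlap (log2 change 0.66 with an SE of 0.05, limma adjusted p = 1.83e-06). Exons of Syn3, on the opposite strand, cover 21.3% of its exon bases. Timp2, which inhibits Mmp2 and also takes part in its activation by Mmp14, rose from 11708, 12737, 12024 and 11989 to 17013, 17172, 17496 and 17279 (log2 change 0.51 with an SE of 0.03, limma adjusted p = 1.01e-06). Replicate 2, with its high Mmp2, was not apart in Timp2.

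Timp1, on the X chromosome, fell slightly, from 2484, 2710, 2619 and 2586 to 2434, 2301, 2415 and 2291 (log2 change -0.14 with an SE of 0.04, limma adjusted p = 0.00865). The lowest Cyp1b1+/+ library and the highest of the others differ little. Since Xist also separates the groups, the part of X dosage in this change cannot be told apart from that of the genotype. Reck, a membrane-anchored inhibitor of Mmp2, Mmp9 and Mmp14, had 153, 189, 163 and 181 in Cyp1b1+/+ and 96, 245, 102 and 103 in those labelled Cyp1b1-/-. It did not pass with all libraries (log2 change -0.44 with an SE of 0.26, limma adjusted p = 0.179) and was lower without replicate 2 (log2 change -0.76, limma adjusted p = 1.61e-05). The summed value of Timp1, Timp2 and Timp3 was 21563 to 23937 in Cyp1b1+/+ and 31151 to 32307 in those labelled Cyp1b1-/-. For the 11 Mmp genes it was 8406 to 9756 and 10378 to 10991, and 26490 in replicate 2.

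Genes that activate, bind or regulate these enzymes were counted from a list of 34, of which 24 had values. Of these 2 were higher, 15 lower and 7 did not pass, against the 26.8% and 26.9% of all genes. Without replicate 2 there were 3 higher and 15 lower. The lower genes included some of the plasminogen activation system, which can activate Mmp precursors. Plau, the urokinase gene, fell from 555, 606, 663 and 596 to 173, 174, 185 and 189 (log2 change -1.74 with an SE of 0.06, limma adjusted p = 1.83e-08), whereas its receptor gene Plaur, at 2123 to 2485 and 2176 to 2376, did not pass (limma adjusted p = 0.352). Serpine2, the gene of an inhibitor of urokinase, had 325 to 384 in Cyp1b1+/+ and 23, 515, 27 and 22 in the other group, so that replicate 2 lay above all Cyp1b1+/+ libraries and the other 3 far below them (log2 change -2.75, limma adjusted p = 0.0195, and -3.85 without replicate 2, limma adjusted p = 8.75e-12). Pcsk6, a proprotein convertase, was lower (log2 change -1.79, limma adjusted p = 5.79e-07), and so was Ctsl, the cathepsin L gene (log2 change -0.84, limma adjusted p = 9.21e-07). Nid1, a basement membrane protein and no regulator itself, was on the list and fell (log2 change -2.51, limma adjusted p = 2.16e-10). Tspan15, a tetraspanin that escorts ADAM10, rose from 935, 990, 978 and 900 to 1701, 1584, 1891 and 1752 (log2 change 0.86 with an SE of 0.05, limma adjusted p = 7.38e-07).

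Among 26 listed ligands and surface proteins that ADAM10 or ADAM17 release, 23 had values, of which 4 were higher, 12 lower and 7 did not pass, against the same shares of all genes (26.8% and 26.9%). Without replicate 2 there were 4 higher and 14 lower. Ligands of the EGF receptor family were on both sides. Areg, the amphiregulin gene, rose from 154, 174, 187 and 195 to 366, 388, 404 and 409 (log2 change 1.14, limma adjusted p = 1.36e-06) and Nrg1, the neuregulin-1 gene, from 365, 361, 365 and 352 to 683, 720, 712 and 686 (log2 change 0.95, limma adjusted p = 4.87e-08). Ereg, the epiregulin gene, fell from 685, 638, 701 and 634 to 259, 252, 257 and 267 (log2 change -1.36, limma adjusted p = 1.83e-08). The adhesion molecules Vcam1 (log2 change -1.66, limma adjusted p = 1.52e-09) and Icam1 (log2 change -2.16, limma adjusted p = 4.57e-07) were lower as well. These are RNA levels, and neither shedding nor enzyme activity was measured.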

How the data were processed

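The authors demultiplexed the reads with bcl2fastq 2.20 and, per the labels' processing notes and the methods, aligned them with STAR 2.5.3a, used RSEM for gene-level counts, dropped low-abundance genes and scaled by TMM in edgeR 3.28.0. The deposited values are these normalized counts rounded to whole numbers, treated here as a score per gene and not as raw counts. Rounding limits genes with low values, and the depth before scaling is unknown. The table also holds the authors' fold changes and p-values, which were not used.

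All 13575 genes were fitted with limma 3.58.1 (R 4.3.3, trended variance) on log2(value + 1), without covariates, with Benjamini-Hochberg adjustment over all genes and a threshold of 0.05. Fold changes are on that scale and understate changes of low genes. The method was tested on simulated data. Every member is named, and for the other lists the genes with the smallest p and a few by role, some chosen after their values were seen. One gene of these lists is counted but not reported here by name. The members and lists were chosen with earlier results of these data known. Alternatives were pseudocounts of 0.5 and 0.1, a filter at 10, rescaling by median ratios, equal column totals, robust moderation, a replicate block and leaving out each library, with a filter on a mean of 50 added after seeing the data. Exon lengths came from GENCODE M21 and promoters from RefSeq GRCm38.p6. Python 3.11.15 and matplotlib 3.10.9 made tables and plots.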

Additional observations from a re-analysis of the deposited data

Results flagged for a closer look

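Among 82 groups of 4 libraries (41 genes in each genotype), 4 had a library far from the other 3 by Dixon's criterion, and all 4 were replicate 2 labelled Cyp1b1-/-. Chance flags about 1 in 20 groups, which is about as many as were found in total. That rate does not take into account that all 4 fell in the same library. The high Mmp2 was known when the genes were chosen, so nothing is read from the number of flags. In this library Mmp2 had 12371, Mmp14 had 8078, Adam12 had 865 and Reck had 245, each the highest of its label. The gap to the next library made up 0.998, 0.921, 0.916 and 0.953 of the group's range, above Dixon's critical value for 4 samples. The same library held 122121 of Col1a1, and the part of the fibroblast markers in these 4 values was not tested.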

How the results depend on the processing

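Over the 16 alternatives the number of higher genes among the 41 ranged from 11 to 13 (12 with all libraries) and that of lower genes from 15 to 19 (16), with 3 to 4 higher and 3 lower by over 2-fold. Of 28 called genes, 25 kept their call under each alternative that tested them, and Mmp2, Adam9 and Adamts7 did not; Mmp23 was left out by the filter on a mean of 50. Equal column totals moved the median of all genes to -0.0265 on the log2 scale. Genes that did not pass changed sign in 4 fits: Adam17 to -0.0163 with equal totals, -0.0253 without Cyp1b1-/- replicate 3 and -0.0207 without Cyp1b1+/+ replicate 1 (-0.0253 to 0.0328 on leaving out single libraries), and Adamtsl3 to 0.0224 without Cyp1b1-/- replicate 2 (-0.0742 to 0.0224); the cause was not tested. The filter at 10 kept all 41 genes and that on a mean of 50 kept 38. With the replicate number as a block, 13 genes were higher and 16 lower, and Adamts6 was the only call that changed (0.1875, adjusted p = 0.0155 from limma). Same-numbered libraries did not deviate together over all genes (correlations -0.0226 to -0.0045), so no pairing by number was seen. A small shared effect could be missed this way, since noise of low genes enters the correlations. Counting error cannot be given, since the depth before scaling is unknown.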
